A study of Mus musculus with 6 samples.

Results

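The mitochondrial genome of the mouse encodes 37 genes. All of them are described here as they were counted in RNA-Seq libraries of mouse embryonic stem cells (mESCs). The members were chosen by their gene symbols, which start with mt-, and they are 37 of the 39017 genes counted in each library. They comprise 13 mRNAs, 2 rRNAs and 22 tRNAs, and all 37 gene identifiers were found on the mitochondrial chromosome of the GENCODE vM21 annotation of mm10 (GRCm38). Each has 1 exon in that annotation. On the mitochondrial genome 12 mRNAs, both rRNAs and 14 tRNAs are transcribed in one direction, called here the heavy-strand transcript, and mt-Nd6 and the other 8 tRNAs in the opposite direction.

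The study addressed the roles of RNA polymerases I, II and III in the folding of the genome, and its RNA-Seq libraries used here are those of the Pol II degron and wild-type cells. Its cells were V6.5 mESCs in which a Tir1 cassette, inducible by doxycycline, stood in Rosa26 and in which the largest Pol II subunit, RPB1, carried an mAID-GFP tag at its C terminus, so that auxin leads to destruction of the tagged protein. The line was grown from single colonies. The untreated group (2 libraries) received 1 µg/ml doxycycline for 12 h and no auxin. The auxin group (2 libraries) received the same doxycycline and 500 µM auxin (indole-3-acetic acid) for 6 h, so that every degron library, controls included, carried the tag, the Tir1 cassette and doxycycline. The wild-type group (2 libraries) was the V6.5 line without the tag. Whether it received doxycycline is not stated, and the extraction record of its libraries names retinas. The paper names polyA RNA-Seq for the untreated and auxin libraries and gives no selection for the wild-type ones. All cells were grown with irradiated embryonic fibroblasts as feeders and were passaged before harvest. The study calls its high-throughput replicates biological, without saying how the replicate cultures were separated, and the p-values below measure the spread between these libraries.

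Mitochondrial genes are transcribed by a polymerase of their own, POLRMT, together with the factors TFAM and TFB2M, and not by Pol II. Both strands are copied into long precursors in which tRNAs lie between most of the mRNAs and rRNAs, and excision of the tRNAs releases the other RNAs. Most of the mRNAs receive short poly(A) tails, which in some of them complete the stop codon, while tRNAs receive only the bases CCA. Selection of RNA by its poly(A) tail can therefore take up these classes unequally.

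Sequences of 3 kinds are shown because the results turn on them, all of them from the GENCODE vM21 transcripts. The first set is the 6 tRNAs that held most of the tRNA counts, with the anticodon in capitals where it was found by a search for a loop closed by a stem; in mt-Ts2, whose anticodon arm did not meet that rule, nothing is capitalised. The tRNAs mt-Th, mt-Ts2 and mt-Tl2 follow each other without a spacer between mt-Nd4 and mt-Nd5, at chrM:11546-11612, chrM:11613-11671 and chrM:11671-11741 on the + strand. The others lie on the - strand, mt-Tn at chrM:5089-5159, mt-Tc at chrM:5192-5257 and mt-Tp at chrM:15356-15422.
mt-Th: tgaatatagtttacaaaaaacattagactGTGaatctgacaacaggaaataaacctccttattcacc
mt-Ts2: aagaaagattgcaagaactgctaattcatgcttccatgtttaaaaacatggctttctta
mt-Tl2: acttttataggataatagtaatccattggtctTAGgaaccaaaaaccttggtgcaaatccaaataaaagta
mt-Tn: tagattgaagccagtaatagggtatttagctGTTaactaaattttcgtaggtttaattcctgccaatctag
mt-Tc: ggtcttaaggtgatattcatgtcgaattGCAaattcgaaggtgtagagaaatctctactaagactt
mt-Tp: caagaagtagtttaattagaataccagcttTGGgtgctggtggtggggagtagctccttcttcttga

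The second set is the last 30 bases of 4 annotated mRNAs, with the stop codon in capitals. In mt-Co3, mt-Nd4 and mt-Cytb the annotated gene ends on a lone T, which becomes a stop codon only once a poly(A) tail is added, and mt-Co1 is shown as one of the 10 mRNAs that end on complete codons. The stretches are chrM:9361-9390, chrM:11515-11544, chrM:15259-15288 and chrM:6843-6872, all on the + strand.
mt-Co3: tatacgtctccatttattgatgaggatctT
mt-Nd4: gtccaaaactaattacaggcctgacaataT
mt-Cytb: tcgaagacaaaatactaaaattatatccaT
mt-Co1: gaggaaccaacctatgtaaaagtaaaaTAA

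The third set shows where mitochondrial sequence has a copy in the nuclear genome. On chromosome 1, on the - strand, 7 annotated unprocessed pseudogenes lie between positions 24611535 and 24616197 (mm10) in the same order as the mitochondrial genes they match, over 4663 bases that correspond to 4662 bases of the mitochondrial genome from 6381 to 11042. The copies of mt-Co2, mt-Atp6, mt-Co3 and mt-Nd4l, and of the part of mt-Nd4 inside the interval, were identical to the mitochondrial gene over the aligned bases, the copy of mt-Nd3 had 1 difference, and the copy of the end of mt-Co1 had 6 differences in 492 bases. The first 30 bases of that copy, Gm29216 (chr1:24616168-24616197, - strand), are set below the matching bases of mt-Co1 (chrM:6381-6410, + strand), with all 6 differences in capitals.
mt-Co1: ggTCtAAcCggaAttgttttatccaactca
Gm29216: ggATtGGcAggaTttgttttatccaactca

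After these bases the copy and mt-Co1 were the same to the end of the gene. A read from inside these matching parts therefore fits the mitochondrial genome and chromosome 1 equally well. Of all stretches of 100 bases in each mRNA, the share found also in the transcript of another annotated gene was 99.5% for mt-Co2, 99.5% for mt-Atp6, 99.9% for mt-Co3, 97.6% for mt-Nd3 and 98.5% for mt-Nd4l. It was 60.8% for mt-Nd4, 30.8% for mt-Co1, 3.19% for mt-Nd2 and 0% for the other mRNAs and both rRNAs. Although mt-Atp8 has 0% by this measure, it lies inside the copied interval, between the annotated copies. How reads with several matches were counted is not stated, so the counts of the 5 genes with shares over 90%, and in part those of mt-Nd4 and mt-Co1, are uncertain. Only 1 of the 7 copies, Gm10222, which matches mt-Nd4l, was analysed here. It held 101 and 131 counts in the untreated libraries, 153 and 130 after auxin and 351 and 353 in the wild-type libraries.

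The depth was similar across libraries, with 14094022 to 15358714 counts each. All 10 pluripotency markers examined, Pou5f1, Nanog and Sox2 among them, were counted in every library, with a summed level of 4513 to 5042 CPM (counts scaled to the library total) in the untreated, 3753 to 3975 in the auxin and 7149 to 7212 in the wild-type libraries. The single markers did not all follow the sum. Log2 fold changes over untreated were 0.08 with auxin and 0.02 in the wild type for Pou5f1, -0.58 and 0.46 for Nanog and -0.78 and 0.86 for Sox2. Over all 10 they ran from -0.90 to 0.08 with auxin and from -0.18 to 1.40 in the wild type. Markers of the fibroblast feeders summed to 222 to 228 CPM in the untreated, 250.0 to 277 in the auxin and 192 to 195 in the wild-type libraries, with Lum at 0 in all but 1 library. Of 9 retina markers, Crx, Rcvrn and Rpe65 were at 0 in all libraries, and the wild-type libraries held 21 and 18 counts on the whole list against 32 to 70 in the degron libraries. The part of feeder RNA in the results below was not tested, and fewer cells of a type and less RNA per cell cannot be told apart in bulk RNA.

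Counts on the mitochondrial mRNAs made up 0.341% and 0.401% of the untreated libraries, 0.399% and 0.441% of the auxin libraries and 1.53% and 1.5003% of the wild-type libraries. The 2 rRNAs took 0.144% and 0.138%, 0.168% and 0.151%, and 0.0597% and 0.0608% in the same order. The 22 tRNAs together took 0.00367% and 0.00455%, 0.00389% and 0.00387%, and 0.00915% and 0.00858%. The mRNA share in the wild-type libraries was thus above every degron library and the rRNA share below every one, while the mRNA and tRNA shares of the untreated and auxin libraries overlapped. For the smallest of these shares, the tRNAs of untreated replicate 1 (517 counts), the exact 95% interval was 0.00336% to 0.00400%, which covers counting error only.

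**Figure D1:**
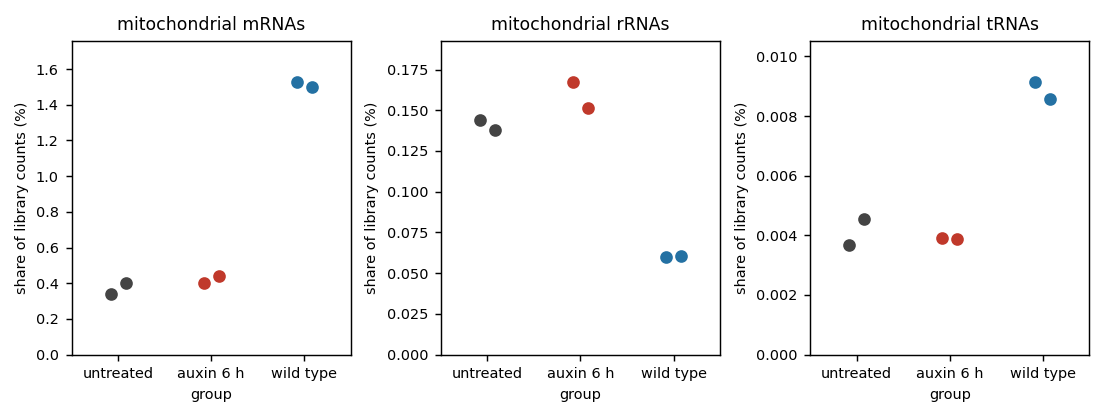
Share of all counts of a library (%) on the 13 mRNAs, 2 rRNAs and 22 tRNAs of the mitochondrial genome, with 1 point per library and the axes starting at 0. The wild-type libraries have the highest mRNA shares (1.53% and 1.5003%) and the lowest rRNA shares (0.0597% and 0.0608%).

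Set against each other within a library, mRNA counts per rRNA count were 2.37 and 2.90 in the untreated, 2.38 and 2.92 in the auxin and 25.6 and 24.7 in the wild-type libraries. With only the 6 mRNAs under 10% shared stretches in the numerator, the ratio was 1.38 and 1.69, 1.35 and 1.68, and 10.8 and 10.7. The tRNAs held 25.5 and 32.9 counts per 1000 rRNA counts in the untreated libraries, 23.2 and 25.6 after auxin and 153 and 141 in the wild type. The counts of mt-Rnr2 (16S) per count of mt-Rnr1 (12S) moved far less, at 1.81 and 1.60, 1.78 and 1.77, and 2.02 and 2.17. The untreated and auxin libraries overlapped in each of these ratios, and the wild-type libraries lay above both.

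Per kilobase of gene, the untreated libraries held a mean of 765 CPM of mt-Co1 (SD 102, n = 2), 580 of mt-Cytb (SD 47.8), 561 of mt-Rnr2 (SD 34.2), 547 of mt-Rnr1 (SD 14.1), 534 of mt-Nd1 (SD 84.6) and 472 of mt-Nd2 (SD 46.4). Then came mt-Nd4 at 235 (SD 8.74), mt-Nd5 at 213 (SD 23.8) and mt-Nd6 at 206 (SD 24.3). From mt-Cytb to mt-Nd2 neighbours in this order differed by less than their spread, as they did from mt-Nd4 to mt-Nd6. Below them lay the genes of the copied interval, mt-Co2 at 28.5 (SD 6.75), mt-Atp6 at 15.4 (SD 2.21), mt-Co3 at 13.6 (SD 4.86), mt-Nd4l at 10.4 (SD 0.436), mt-Nd3 at 7.60 (SD 0.653) and mt-Atp8 at 2.05 (SD 0.0529). The 5 mRNAs with over 90% shared stretches thus lay between 7.60 and 28.5 CPM per kb, and the other mRNAs and rRNAs except mt-Atp8 at 206 or more.

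In the wild-type libraries the order changed, with mt-Co1 at 4745 CPM per kb (SD 1.11, n = 2) followed by mt-Cytb at 1559 (SD 6.37) and mt-Nd1 at 1553 (SD 5.40), and with mt-Rnr2 at 258 (SD 7.67) and mt-Rnr1 at 204 (SD 4.66) below 7 mRNAs, that is all but mt-Atp8 and the 5 with over 90% shared stretches. The share of mRNA counts on mt-Co1 was 47.9% and 48.9%, against 31.4% and 32.3% in the untreated and 31.7% and 31.3% in the auxin libraries.

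**Figure D2:**
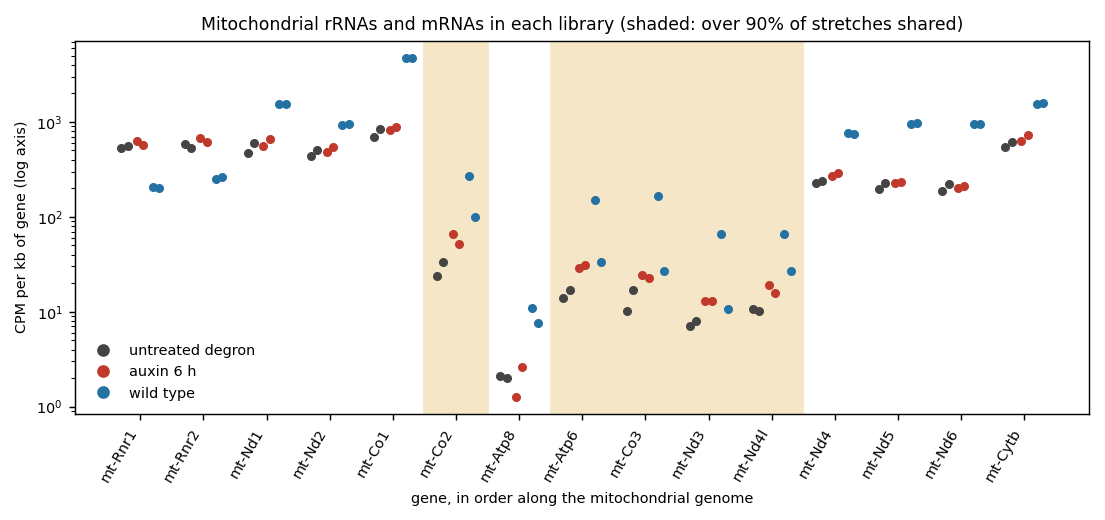
Level of each mitochondrial rRNA and mRNA in CPM per kb of gene (log axis), in order along the mitochondrial genome, with 1 point per library coloured by group. Shading marks the 5 genes with over 90% shared stretches, whose means over the untreated libraries lie between 7.60 and 28.5 CPM per kb. The gene mt-Atp8, between shaded genes, is lower still.

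The auxin comparison asked how these RNAs changed 6 h after auxin was added to cells whose Pol II carries the degron. Transcripts of the tagged gene itself, Polr2a, held 6623 and 6568 counts without auxin and 10396 and 10663 with it, a log2 fold change of 0.57 (SE 0.07, adjusted p = 0.00117). The degron acts on the protein, so its transcript does not check the labels. Of the 16128 genes tested, 4.2% were called at an adjusted p under 0.05 (edgeR quasi-likelihood test, Benjamini-Hochberg), 2.56% higher and 1.64% lower. Of the 13 mRNAs, 12 passed the filter on low counts and 3 of those were called, all higher. No rRNA and none of the 9 tRNAs tested was called; at an unadjusted p under 0.05 stood 6 mRNAs, 1 rRNA and 1 tRNA, beside 3245 of all 16128 genes tested. The median log2 fold change was 0.22 over the 12 mRNAs, 0.15 over the rRNAs and -0.07 over the 9 tRNAs, beside -0.00038 over all genes tested.

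The 3 mRNAs that rose lie close together in the copied interval. The counts of mt-Co2, a core subunit of cytochrome c oxidase, were 229 and 333 without and 699 and 542 with auxin. Both auxin libraries were above both untreated ones, and the log2 fold change was 1.04 (SE 0.15, adjusted p = 0.00282), the only one past 1 among the members in this comparison, as for 1.53% of all genes tested. Counts of mt-Atp6, a membrane subunit of ATP synthase, were 133 and 169 against 302 and 320, a log2 fold change of 0.94 (SE 0.14, adjusted p = 0.00282). Counts of mt-Co3, another core subunit of cytochrome c oxidase, were 112 and 195 against 294 and 270, a log2 fold change of 0.77 (SE 0.19, adjusted p = 0.0369).

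The groups did not overlap in any of these genes, but how many of all genes tested did so was not counted. With the wild-type libraries in the same fit, however, no call remained among them (adjusted p = 0.0761, 0.302 and 0.511 for mt-Co2, mt-Atp6 and mt-Co3), nor without the filter on low counts (adjusted p = 0.0766, 0.0573 and 0.192). The log2 fold changes themselves stayed at 1.02, 0.92 and 0.75 in both. The call of mt-Co3 was also lost by DESeq2 (adjusted p = 0.0887) and when either auxin library was left out, and its log2 fold change was 0.43 without untreated replicate 1 and 1.21 without untreated replicate 2.

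The other genes with over 90% shared stretches had values of similar size that did not pass. Counts of mt-Nd3, a subunit of complex I, were 35 and 41 against 69 and 69, a log2 fold change of 0.76 (SE 0.23, adjusted p = 0.0859). Those of mt-Nd4l, also of complex I, were 45 and 44 against 88 and 71, with 0.73 (SE 0.22, adjusted p = 0.0847). Its copy Gm10222 had a log2 fold change of 0.18 (SE 0.17, adjusted p = 0.613). All 5 genes with shares over 90% had log2 fold changes between 0.73 and 1.04, while mt-Nd4 and mt-Co1, with intermediate shares, stood at 0.24 (SE 0.07) and 0.14 (SE 0.10), and the 5 tested mRNAs under 10% lay between -0.01 and 0.20 with a median of 0.09. Neither mt-Nd4 (4435 and 4849 against 5704 and 6096 counts, adjusted p = 0.0859) nor mt-Co1 (15101 and 18908 against 19412 and 20884 counts, adjusted p = 0.469) was called. The part of reads from the nuclear copy in these values was not tested.

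**Figure D3:**
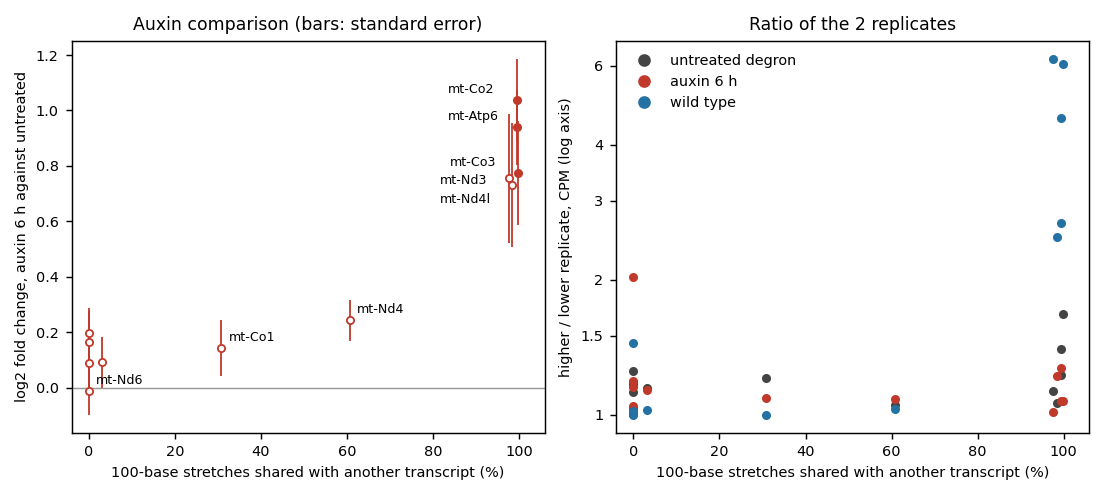
Left, log2 fold change of each tested mRNA in the auxin comparison (bars, standard error; filled, adjusted p under 0.05) against the share of its 100-base stretches found in another transcript (%); right, the higher over the lower of the 2 replicates of each group (log axis) against the same share. The 5 mRNAs past 90% have log2 fold changes of 0.73 to 1.04, and their wild-type replicates differ 2.49- to 6.22-fold.

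Among the remaining complex I mRNAs, mt-Nd1 had 6391 and 8302 counts without and 8121 and 9544 with auxin (log2 fold change 0.16, SE 0.11), and the groups overlapped. For mt-Nd2 the counts were 6423 and 7657 against 7593 and 8515 (0.09, SE 0.09), and for mt-Nd5 they were 5031 and 6116 against 6376 and 6352 (0.09, SE 0.08). The only mRNA of the opposite strand, mt-Nd6, had 1380 and 1692 against 1611 and 1661 counts (-0.01, SE 0.09). Cytochrome b of complex III, mt-Cytb, had 8806 and 10264 against 10982 and 12469 counts (0.20, SE 0.09). None of these 5 was called, with adjusted p between 0.254 and 0.958. The second ATP synthase gene, mt-Atp8, overlaps mt-Atp6 and had only 6 and 6 against 4 and 8 counts, too few for the test.

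Relative to the library total, untreated replicate 1 was the lower of the pair in every mRNA except mt-Nd4l and mt-Atp8. Without untreated replicate 2 the log2 fold changes of the tested mRNAs lay between 0.13 and 1.32. Without untreated replicate 1 they lay between -0.15 and 0.80. Such a fit leaves 1 untreated library, which is assumed to vary like the other group.

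The small-subunit rRNA mt-Rnr1 held 7226 and 7774 counts without and 9253 and 8276 with auxin, a log2 fold change of 0.12 (SE 0.08, adjusted p = 0.41). The large-subunit rRNA mt-Rnr2 held 13050 and 12416 against 16483 and 14623, with 0.18 (SE 0.08, adjusted p = 0.223). Neither was called. The groups did not overlap in either rRNA, nor in other uncalled members such as mt-Nd3, mt-Nd4l and mt-Nd4. How many of all genes tested did not overlap was not counted, so no result is read from it.

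Most tRNA counts fell on mt-Tp, mt-Tc and mt-Tn printed above, whose genes lie on the opposite strand. Together they held 71.0% and 77.1% of tRNA counts in the untreated and 71.6% and 71.0% in the auxin libraries. Whether strand was used in counting is not given, so these counts may include reads of the heavy-strand transcript. Counts of mt-Tp (proline) were 167 and 249 against 208 and 214 (log2 fold change -0.08, SE 0.16), and those of mt-Tc (cysteine) 103 and 135 against 125 and 118 (-0.07, SE 0.17). Both auxin values lay between the untreated ones in each. Counts of mt-Tn (asparagine) were 97 and 129 against 95 and 84, a log2 fold change of -0.44 (SE 0.19, adjusted p = 0.222).

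The other 6 tested tRNAs had 7 to 35 counts per library, where counting error is large. Their log2 fold changes were 0.80 (SE 0.45) for mt-Tw, 0.36 (SE 0.29) for mt-Tl1, 0.24 (SE 0.32) for mt-Ty, 0.12 (SE 0.37) for mt-Te, -0.19 (SE 0.36) for mt-Th and -0.42 (SE 0.34) for mt-Tl2. The standard errors leave changes of the size seen in mt-Co2 undetectable in some of them.

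**Figure D4:**
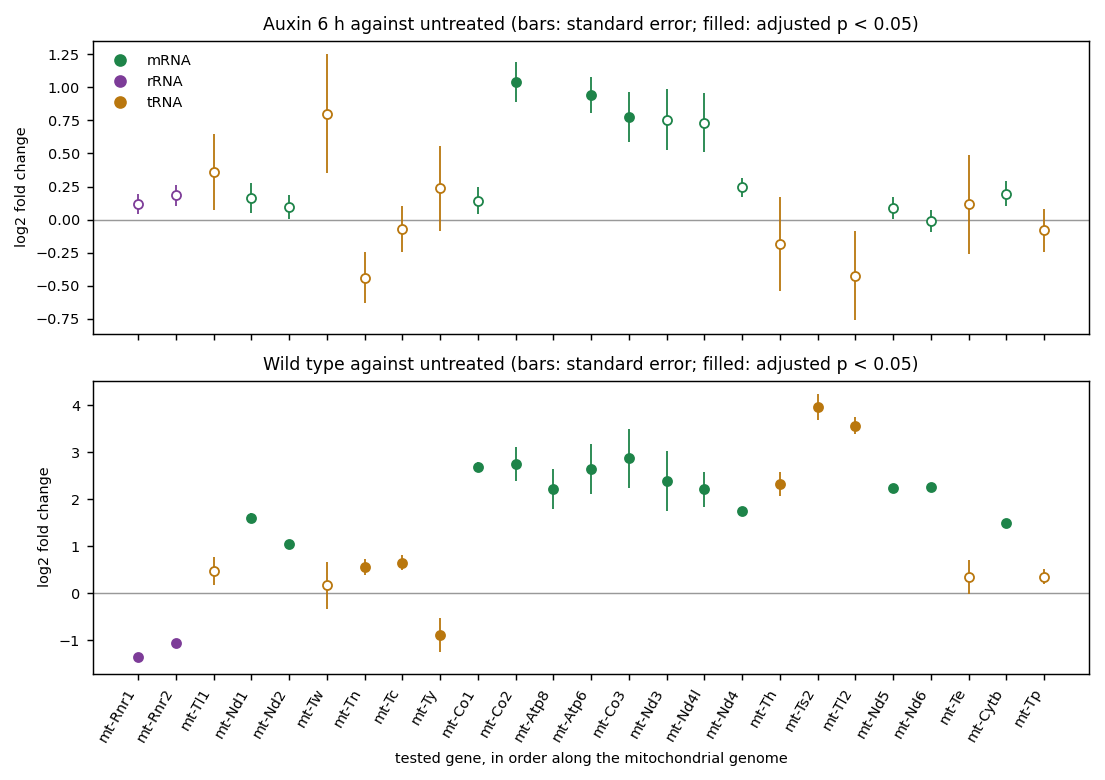
Log2 fold change of every tested member in order along the mitochondrial genome, for auxin 6 h (top) and wild type (bottom) against the same untreated libraries, with standard errors; filled points passed an adjusted p of 0.05 and colours mark mRNAs, rRNAs and tRNAs. With auxin 3 mRNAs pass, mt-Co2, mt-Atp6 and mt-Co3; in the wild type all 13 mRNAs lie above 0 and both rRNAs below it.

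The wild-type comparison asked how cells with untagged Pol II differ from untreated degron cells. It uses the same untreated libraries as the auxin comparison, so a deviation of those libraries enters both. The wild-type libraries stand in a separate table, and genotype, doxycycline and preparation cannot be told apart. Transcripts of Polr2a were at 6866 and 7129 counts in the wild type (log2 fold change 0.10, SE 0.06, adjusted p = 0.172). Of the 15778 genes tested, 60.6% were called, 29.9% higher and 30.7% lower, and 18.1% passed an absolute log2 fold change of 1 as well.

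All 13 mRNAs were called higher in the wild type and all 13 were past a log2 fold change of 1, both rRNAs were called lower, and of 10 tested tRNAs 5 were called higher and 1 lower. The median log2 fold change was 2.24 over the mRNAs and 0.52 over the tested tRNAs, beside -0.01 over all genes tested. Of these members mt-Atp8 and mt-Ts2 passed the filter on low counts only through the wild-type libraries, so a difference was built into their being tested; with at least 10 counts required in every library 12 of 12 mRNAs were called higher, and 4 of 8 tRNAs higher and 1 lower.

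The mRNA with the highest level, mt-Co1, the catalytic subunit of cytochrome c oxidase, held 108326 and 109090 counts against 15101 and 18908 in the untreated libraries, a log2 fold change of 2.69 (SE 0.10, adjusted p = 3.25e-09). Among complex I genes, mt-Nd6 of the opposite strand held 7215 and 7270 counts against 1380 and 1692 (2.25, SE 0.08). Its neighbour mt-Nd5, whose end overlaps that of mt-Nd6 on the other strand, held 25789 and 26407 against 5031 and 6116 (2.24, SE 0.08). Whether strand was used in counting is not given, so reads in that overlap cannot be assigned to either. For the same reason counts on any member may include reads of the other strand's transcript. This holds for the whole of mt-Nd6 and for the 8 opposite-strand tRNAs.

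Smaller changes were seen in mt-Nd4, with 15574 and 15189 against 4435 and 4849 counts (1.74, SE 0.06), and in mt-Nd1, with 21904 and 22160 against 6391 and 8302 (1.60, SE 0.10). Counts of mt-Cytb were 26280 and 26610 against 8806 and 10264 (1.48, SE 0.08), and those of mt-Nd2 were 14190 and 14620 against 6423 and 7657 (1.04, SE 0.08), the smallest change of the mRNAs. In all of these the wild-type replicates lay within 1.03-fold of each other and far above both untreated libraries.

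The 5 mRNAs with over 90% shared stretches differed more between wild-type replicates. Counts were 2715 and 1022 for mt-Co2, 1530 and 336 for mt-Atp6, 1897 and 316 for mt-Co3, 340 and 55 for mt-Nd3 and 292 and 118 for mt-Nd4l, so that replicate 1 was higher 2.49- to 6.22-fold after division by library totals. In the same libraries Gm10222 was at 351 and 353 counts, a log2 fold change of 1.61 over untreated (SE 0.13, adjusted p = 1.49e-06), and mt-Atp8 was at 33 and 23 counts against 6 and 6 (2.21, SE 0.43). Gm13340, a copy on chromosome 2 that shares stretches with mt-Co1, held 4 and 2 counts in the untreated and 20 and 37 in the wild-type libraries (3.21, SE 0.56). It passed the filter on low counts only through the wild-type libraries, so a difference was built into its being tested.

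The log2 fold changes were 2.75 (SE 0.36) for mt-Co2, 2.64 (SE 0.54) for mt-Atp6, 2.86 (SE 0.63) for mt-Co3, 2.39 (SE 0.64) for mt-Nd3 and 2.21 (SE 0.37) for mt-Nd4l. They rest in part on wild-type replicate 1. Without replicate 2 they were 3.30, 3.36, 3.65, 3.18 and 2.74, and without replicate 1 they were 1.88, 1.17, 1.06, 0.55 and 1.42, of which mt-Nd3 was no longer called (adjusted p = 0.201). The 6 mRNAs under 10% shared stretches had a median of 1.90 and lay between 1.04 and 2.25.

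The rRNAs went the other way. Counts of mt-Rnr1 were 2925 and 2851 in the wild type against 7226 and 7774, a log2 fold change of -1.37 (SE 0.06, adjusted p = 1.5e-08). Counts of mt-Rnr2 were 5896 and 6191 against 13050 and 12416, a log2 fold change of -1.06 (SE 0.06, adjusted p = 1.14e-07). The wild-type and untreated libraries did not overlap in either rRNA, which was not counted over all genes tested. With 1 library left out the log2 fold changes were -1.41 to -1.33 for mt-Rnr1 and -1.11 to -1.02 for mt-Rnr2.

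Of the tRNAs, the adjoining mt-Th, mt-Ts2 and mt-Tl2 rose most. The histidine tRNA mt-Th held 135 and 128 counts in the wild type against 18 and 35, a log2 fold change of 2.32 (SE 0.26, adjusted p = 1.59e-05). The serine tRNA mt-Ts2 held 153 and 128 against 8 and 10 (3.96, SE 0.28, adjusted p = 4.18e-07), and the leucine tRNA mt-Tl2 held 349 and 297 against 27 and 28 (3.56, SE 0.18, adjusted p = 3.73e-08). Together these 3 tRNAs took 10.3% and 11.0% of tRNA counts in the untreated, 8.19% and 10.1% in the auxin and 47.1% and 43.3% in the wild-type libraries.

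The other tested tRNAs moved less, both those of the opposite strand and mt-Tl1 and mt-Tw of the heavy-strand transcript. Counts of mt-Tc were 185 and 184 against 103 and 135 (0.64, SE 0.16, adjusted p = 0.00475), those of mt-Tn were 157 and 174 against 97 and 129 (0.56, SE 0.17, adjusted p = 0.0137), and those of mt-Tp were 269 and 258 against 167 and 249 (0.35, SE 0.16, adjusted p = 0.0749). The tyrosine tRNA mt-Ty was called lower, with 14 and 12 against 28 and 21 counts (-0.90, SE 0.37, adjusted p = 0.04997). That call was lost in several alternatives, with DESeq2 size factors, with TMM factors set without the mitochondrial genes, with DESeq2 itself, without the filter and when untreated replicate 1 or either wild-type library was left out. The call of mt-Tn was lost with DESeq2, without the filter and without untreated replicate 1 or wild-type replicate 2.

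Not called were mt-Tl1 (39 and 30 against 26 and 24 counts, 0.47, SE 0.30), mt-Te (26 and 27 against 27 and 15, 0.34, SE 0.36) and mt-Tw (7 and 12 against 10 and 7, 0.17, SE 0.50). Counts of mt-Ti, which overlaps mt-Nd1 and on the other strand mt-Tq, were 6 and 17 in the wild type and 3 and 3 in the untreated libraries and were not tested.

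The remaining 11 tRNAs had at most 4 counts in any library, among them mt-Tf, mt-Ts1 and mt-Td with 0 in all 6, which allows up to 3 counts per library. All 5 tRNAs inside the copied interval, mt-Ts1, mt-Td, mt-Tk, mt-Tg and mt-Tr, were among these, with at most 3 counts. The tRNA genes are 59 to 75 bases long and the reads 150 bases, so a read that covers a tRNA also reaches its neighbours unless it comes from the free tRNA, and how reads over several genes were counted is not stated.

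**Figure D5:**
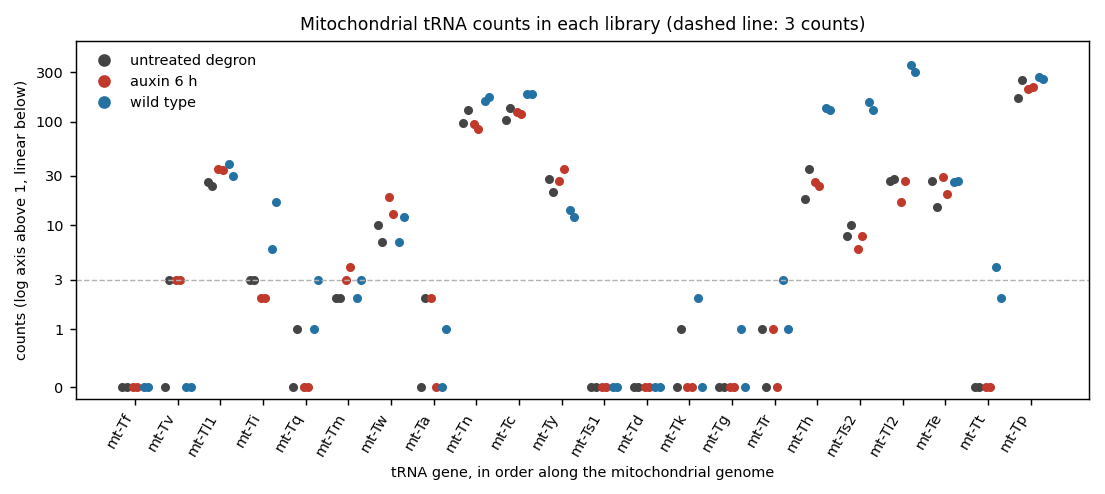
Counts of the 22 mitochondrial tRNAs in each library (log axis above 1 count, linear below), in order along the mitochondrial genome and coloured by group, with a dashed line at 3 counts. In the wild type mt-Th, mt-Ts2 and mt-Tl2 stand at 128 to 349 counts against 8 to 35 in the untreated libraries.

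Nuclear genes that serve the mitochondrial genome were followed in both comparisons. Their counts stand beside 2.56% higher and 1.64% lower of all genes tested after auxin. In the wild type those shares were 29.9% higher and 30.7% lower. Of the 10 transcription genes, none was called higher and 1 lower after auxin, with a median log2 fold change of -0.19. The lower one was Tefm, an elongation factor of the mitochondrial polymerase, with 323 and 320 counts against 240 and 263 (-0.46, SE 0.11, adjusted p = 0.0361). Polrmt, the polymerase, had a log2 fold change of -0.16 (SE 0.08), Tfam -0.22 (SE 0.07) and Tfb2m 0.11 (SE 0.12), none of them called. In the wild type 3 of the 10 were called higher and 1 lower. Tfam held 1354 and 1281 against 1045 and 1072 counts (0.33, SE 0.07) and Tefm 437 and 437 against 323 and 320 (0.45, SE 0.09), while Mterf3, of the family of mitochondrial termination factors, was lower with 297 and 348 against 471 and 438 (-0.48, SE 0.10). Polrmt stood at -0.01 (SE 0.07) and Tfb2m at 0.27 (SE 0.12), neither of them called.

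Of 9 genes that maintain mitochondrial DNA, none was called after auxin. In the wild type 6 were called higher and none lower, beside 29.9% and 30.7% of all genes tested. Polg, the replicative DNA polymerase of mitochondria, held 1730 and 1714 against 1214 and 1168 counts (0.54, SE 0.07), and Dna2, a nuclease and helicase, 1350 and 1288 against 612 and 733 (0.98, SE 0.08). Of 17 tested genes for processing and modification of mitochondrial RNA, none was called after auxin. In the wild type 6 were higher and 3 lower, with Mto1, which modifies tRNA, at 0.57 (SE 0.10) and Trit1, another tRNA-modifying enzyme, at -0.56.

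Of 18 genes for stability and polyadenylation, none was called after auxin, and in the wild type 8 were higher and 3 lower. Pnpt1, which encodes polynucleotide phosphorylase, rose by 0.56 on the log2 scale (SE 0.08), and Rexo2, an oligoribonuclease, fell from 877 and 998 to 565 and 553 counts (-0.73, SE 0.08). Lrpprc and Slirp encode partners that bind mitochondrial mRNAs. After auxin Lrpprc was at 0.03 (SE 0.08) and Slirp at -0.01 (SE 0.08), neither called, and in the wild type Lrpprc was at -0.01 (SE 0.08), not called, and Slirp was called lower at -0.27 (SE 0.07). Of the 17 mitochondrial aminoacyl-tRNA synthetases, only Hars2, for histidine, was called after auxin, lower at -0.39 (SE 0.10, adjusted p = 0.0487). In the wild type 8 were higher and 4 lower, with Aars2, for alanine, at 0.51 and Rars2, for arginine, at -0.52. The shares called in the wild type stand beside the 60.6% of all genes tested, 29.9% higher and 30.7% lower. Those after auxin stand beside 2.56% higher and 1.64% lower.

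Nuclear RNAs without a long poly(A) tail were set beside the mitochondrial rRNAs and tRNAs. Of 5 tested, 3 were called higher after auxin, beside 2.56% of all genes tested. Terc, the RNA of telomerase, went from 19 and 13 to 59 and 55 counts (1.72, SE 0.30), Gm26917 from 3773 and 3966 to 10914 and 13521 (1.56, SE 0.10) and Gm42418 from 12939 and 14180 to 19274 and 19422 (0.41, SE 0.08). In the wild type 2 were higher and 2 lower, beside 29.9% higher and 30.7% lower of all genes tested. Gm26917 was at 0.61 (SE 0.10) and Gm42418 at -0.61 (SE 0.08). Rpph1 held 32 and 15 against 12 and 9 counts (1.16, SE 0.46, adjusted p = 0.0434). Rn7sk, with 6 and 4 against 29 and 15 counts, was at -2.10 (SE 0.52). It passed the filter on low counts only through the untreated libraries. The summed level of this list was 1191 and 1244 CPM in the untreated, 1974 and 2184 in the auxin and 898 and 1085 in the wild-type libraries. Nearly all of these counts were on Gm42418 and Gm26917, so the sum does not stand for the other RNAs of the list. The part of poly(A) selection in the mitochondrial values was not tested.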

How the data were processed

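The authors sequenced paired reads of 150 bases, aligned them to mm10 with HISAT2 2.1.0 and used salmon and htseq-count for genes of GENCODE (release, strand setting and treatment of reads with several matches are not given in the sources used here). They deposited counts per gene, whole numbers and not normalized, the wild-type libraries apart from the degron libraries. The degron table also holds the authors' DESeq2 comparison (group means, fold changes and p-values), which was not used. Also unused were 2 columns of per-sample values that stand with the wild-type counts and matched no sample.

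Tests used edgeR 4.0.16 under R 4.3.3 (TMM, filterByExpr with a minimum count of 10, glmQLFit and glmQLFTest, Benjamini-Hochberg over all genes tested), with 4 libraries in each comparison. Calls are at an adjusted p under 0.05. Log2 fold changes are auxin or wild type over untreated. Levels per kb are CPM of the library total divided by gene length. The scripts were tested on simulated data. Replicates differed by more than counting noise in each group. All mRNAs and rRNAs are named, the tRNAs with a mean of at least 10 counts in a group, and of each list the called genes with the smallest p-values plus fixed ones; a value that this rule would name is not reported here. The members and lists were chosen with earlier results of these data known. Shared stretches of 100 bases were found by exact match among GENCODE vM21 transcripts. Intervals cover counting error only. DESeq2 1.42.0, other scalings, filters and fits, and leaving out each library were alternatives.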

Additional observations from a re-analysis of the deposited data

How the results depend on the processing

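The auxin comparison called 677 genes. DESeq2 called 240 at its default level of independent filtering and 236 with that level at 0.05, a setting added after the first count had been seen; both called 2 members. Without the filter on low counts 55 genes and 0 members were called, with at least 10 counts in every library 432 genes, and with all 3 groups in one fit 1235 genes and 1 member, mt-Nd4. Of the calls 61.0% were higher in the main design, 78.2% without the filter and 45.9% with all groups in one fit. Leaving out 1 library, where the lone sample is assumed to vary like the other group, gave 179 to 2724 genes and 2 to 9 members (2724 genes without untreated replicate 1, 1114 without untreated replicate 2, 184 without auxin replicate 1 and 179 without auxin replicate 2). Samples with the same replicate number did not deviate together (correlations of 0.05 in the auxin and -0.03 in the wild-type comparison), so the numbers were not taken to pair them; with a replicate block 1930 genes and 6 members were called after auxin and 9689 genes and 21 members in the wild type, without mt-Ty and with mt-Tp.

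The wild-type comparison, with 9555 genes and 21 members called, stayed within 1.5 times under every alternative run. Without the filter mt-Atp6, mt-Co3 and mt-Nd3 lost their calls, and mt-Nd3 also with DESeq2. The log2 ratio of the mRNA share was 2.03, or 1.59 over the mRNAs under 10% shared stretches, an alternative added after seeing the data, and 1.92 to 2.15 with 1 library left out. That of the tRNA share was 1.11 (0.96 to 1.27). After auxin the log2 ratio of the tRNA share changed sign with libraries left out (-0.23 to 0.0814).

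With 1 library left out, small uncalled values changed sign after auxin, over ranges of -0.0074 to 0.35 for mt-Nd1, -0.0242 to 0.21 for mt-Nd2, -0.0057 to 0.30 for mt-Co1, -0.0407 to 0.22 for mt-Nd5, -0.15 to 0.13 for mt-Nd6, -0.25 to 0.12 for mt-Tc, -0.58 to 0.35 for mt-Th, -0.34 to 0.22 for mt-Tp and -0.26 to 0.60 for mt-Te. In the wild type those ranges were -0.25 to 0.50 for mt-Tw and -0.0289 to 0.84 for mt-Te. With library totals as the only scaling mt-Nd6 stood at 0.0063 after auxin. The cause was not tested. The depth limits the tRNAs most, since 11 of 22 had at most 4 counts. A check of shared stretches against the whole genome was planned and not run.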
